A study of Mus musculus with 26 samples.

Results

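The genes described here are 39 transcription factors that direct the formation of tissues, chosen by name from a list and located in the GENCODE M21 annotation of the mouse genome (build mm10). They are 39 of 21938 annotated protein-coding genes and fall into 6 lists: 14 factors of the neural ectoderm, 4 of the neural crest and skeleton, 3 of the primitive streak, 10 of the mesoderm, 6 of the endoderm and 2 of the trophectoderm. The study was made to read DNA methylation from the same DNA molecules that are accessible or bound by a factor. All libraries used here for accessibility, CTCF and RNA came from KH2 mouse embryonic stem cells (mESC), grown with LIF on irradiated feeder cells that were removed by pre-plating. M-ATAC (4 samples) is ATAC-seq made with methylated adaptors and then converted with bisulfite, M-ATAC-NC (2 samples) has the same adaptors without conversion, and ATAC (2 samples) was made with the Nextera transposase. CTCF M-ChIP, CTCF M-ChIP-NC and CTCF ChIP (2 samples each) are the corresponding libraries after precipitation of CTCF, and RNA-seq (2 samples) was deposited as 1 pooled column. By the study's methods the unconverted (NC) controls of both assays were aliquots set aside before conversion, so they share their preparation with converted samples, though which ones is not given in the sources used here. The methods speak of M-ATAC in duplicate, whereas the labels list 4 samples. A last set of lists (2 samples each) came from Klf4-/- mESC, either without KLF4 or with WT or R462A mutant KLF4 brought in by lentivirus and induced with doxycycline.

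The factors in the list bind DNA and control genes of a tissue, some mainly as activators and others, such as GSC, NKX2-2, NKX6-1, OLIG2 and the MSX proteins, largely as repressors. SOX1, PAX6 and the NEUROG proteins act in neural precursors, TBX5, NKX2-5 and HAND proteins in the heart, MYOD1 in skeletal muscle, and GATA4, GATA6, SOX17 and the FOXA proteins in endoderm. In embryonic stem cells such genes are known for CpG-rich promoters that carry Polycomb marks and active marks at the same time and are transcribed little. A promoter is called open below when at least 1 region of a peak list lies within 3 kb of any annotated transcription start of the gene, and closed when none does.

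Fewer of the genes were silent than their grouping as silent lineage factors would have it. In the pooled RNA column 21 of 39 were under 1 TPM (a transcript level scaled to gene length and library size), beside 42.9% of the protein-coding genes with a TPM, and 18 were at 1 TPM or more. The median was 0.83 TPM, beside 2.77 for all protein-coding genes and 396 for 10 markers of pluripotent cells, which lay between 95.1 and 5394 TPM. Of 10 markers of fibroblasts, the cell type of the feeders, 8 were at 1 TPM or more, with a median of 10.8 and a range from 0.08 for Lum to 48.7 for Col1a1. Whether feeder cells or differentiating cells contributed RNA of the lineage factors was not tested, and in a pooled culture few cells with much RNA and many cells with little cannot be told apart.

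The endoderm factors had the highest levels as a list. Gata4, a zinc finger factor of primitive endoderm and heart, stood at 33.5 TPM, and its relative Gata6 at 18.2 TPM. Sox17 and Sox7, SOX factors of endoderm and vessels, were at 9.09 and 8.47 TPM. Foxa2 and Foxa1, pioneer factors of the gut, were at 4.04 and 1.00 TPM. All 6 endoderm factors were thus at 1 TPM or more, with a median of 8.78 TPM.

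Among the neural factors, 6 of 14 reached 1 TPM. Otx2, a homeobox factor of the anterior brain that is also active in the epiblast, was at 29.9 TPM, and Neurod1, a bHLH factor of neuronal differentiation, at 21.25 TPM. Olig2, of motor neuron and oligodendrocyte precursors, was at 9.64 TPM, Sox1 at 5.37 and Pax6, a paired-box factor of eye and cortex, at 5.10. Irx3, an Iroquois homeobox factor, was at 1.15 TPM. The other 8 ranged from 0.03 TPM (Nkx2-2, of the ventral neural tube) to 0.98 TPM (Lhx2, of forebrain and eye), and the list had a median of 0.695 TPM.

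Mesoderm factors were lower, with a median of 0.51 TPM. Tbx20 (1.79 TPM), a T-box factor of the heart, Gata2 (1.31 TPM), of blood precursors, and Tbx6 (1.10 TPM), of the paraxial mesoderm, passed 1 TPM, and the other 7 lay between 0.02 (Hand2) and 0.83 (Hand1). Of the primitive streak factors, Eomes was at 10.5 TPM, Gsc at 2.00 and Mixl1 at 0.36. Msx2, a homeobox factor of bone and limb, was at 1.86 TPM, its relative Msx1 at 0.74 and Sox9, the cartilage factor, at 0.32, whereas Dlx5 was listed at 0. The trophectoderm factors Cdx2 and Gata3 were at 0.12 and 0.19 TPM. The column was counted without strand, and exons of 11 of the 39 overlap an exon of another annotated gene. These 11 hold 7 of the 18 factors at 1 TPM or more (Eomes, Gata6, Irx3, Neurod1, Otx2, Sox1 and Sox17), whose reads cannot be told apart from those of the overlapping gene. Of the 28 without such an overlap, 11 were at 1 TPM or more.

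Nearly all of these promoters held accessible DNA in the peak list that the authors called on merged M-ATAC replicates. In this list 35 of 39 were open, beside 69.2% of all protein-coding genes. All 18 factors at 1 TPM or more were open, beside 95.4% of all genes at that level. Among the 21 factors under 1 TPM, 17 were open, beside 35.5% of the 9277 protein-coding genes under 1 TPM.

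The base composition of the promoters went with this difference. In the 1 kb around the 5′ end of the gene, the ratio of observed to expected CpG was at least 0.6 for 29 of the 39 factors, beside 45.9% of all genes, and for 17 of the 21 factors under 1 TPM, beside 14.8% of all genes under 1 TPM. Among all genes under 1 TPM with a ratio of at least 0.6, 87.4% were open, and among the 17 factors of that kind 15 were open. For silent factors with CpG-rich starts, the share of open promoters was thus close to that of all such silent genes. Of the silent factors with a ratio under 0.6, Gata3 and Myod1 were open and Hand1 and Tbx5 closed. Windows were not matched in size, and whether composition accounts for the difference was not tested. The median ratio was 0.674 for the 39 factors, 0.483 for open genes under 1 TPM and 0.162 for closed genes under 1 TPM. Gata4, with 0.174, had the lowest ratio of the 39, and Gsc, a homeobox factor of the organizer, the highest with 0.933. The ratio describes the 5′ end of the gene record alone, whereas open was judged at any start. The stronger Gata4 region covered another start and held 11.8 CpGs per 100 bases.

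**Figure D1:**
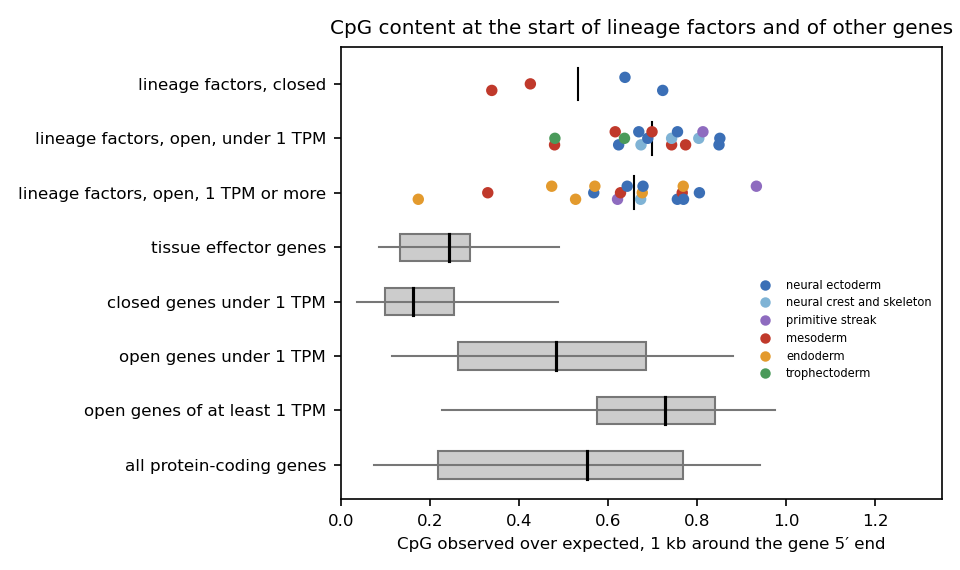
Ratio of observed to expected CpG (x axis, no unit) in the 1 kb around the gene 5′ end, with 1 point per lineage factor coloured by its list and a black line at the median, above boxes (25th to 75th percentile, line at the median, whiskers from the 5th to the 95th percentile) for other sets of genes. Most open lineage factors lie to the right of the box of closed genes under 1 TPM, whose median is 0.162.

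The 4 closed factors came from 2 lists. Pax7, a paired-box factor of the dorsal neural tube and of muscle stem cells, and Lhx5, a LIM homeobox factor of the forebrain, are neural factors, and Tbx5 and Hand1 are heart factors. They were at 0.04, 0.24, 0.21 and 0.83 TPM, a median of 0.225 TPM, beside 1.00 for the 35 open factors. The nearest merged M-ATAC region lay 7410 bases from a start of Lhx5, 8971 from Tbx5, 9998 from Pax7 and 11739 from Hand1, so none was close to the limit of 3 kb. Just inside the limit were Myod1 (2654 bases) and Cdx2 (2123 bases). None of the 4 had a region in any of the 8 accessibility samples, and none had a CTCF region. They did not form a single class by composition, since the CpG ratio was 0.723 for Lhx5 and 0.638 for Pax7 but 0.426 for Tbx5 and 0.339 for Hand1. The median ratio was 0.532 for the closed and 0.677 for the open factors.

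By list, 12 of 14 neural, 4 of 4 neural crest, 3 of 3 primitive streak, 8 of 10 mesoderm, 6 of 6 endoderm and 2 of 2 trophectoderm factors were open. The lists also differed in the median strength of their regions, with a wide spread within several of them. The highest fold enrichment of a promoter region over its local background, as MACS2 gives it, had a median of 13.8 over the 2 trophectoderm factors, 9.79 over the open neural factors, 7.28 over neural crest, 5.34 over mesoderm, 4.91 over primitive streak and 4.70 over endoderm factors. The endoderm list thus had the highest median transcript level and the lowest median fold. Single folds ran from 4.21 (Nkx2-2) to 18.6 (Nkx6-1) among open neural factors and from 3.53 (Pax2) to 17.1 (Isl1) in mesoderm. In endoderm they ran from 3.40 (Foxa1) to 6.06 (Foxa2), and the trophectoderm values were 8.57 (Cdx2) and 18.95 (Gata3). Whether the lists differ beyond this spread was not tested. Across the 35 open factors, the rank correlation of TPM with fold was -0.12 (Spearman), a description over genes that share the same libraries, and over all 15062 open genes with a TPM it was 0.28. The median fold was 6.06 over the 35 open factors, 8.07 over open genes under 1 TPM and 10.9 over all open genes.

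**Figure D2:**
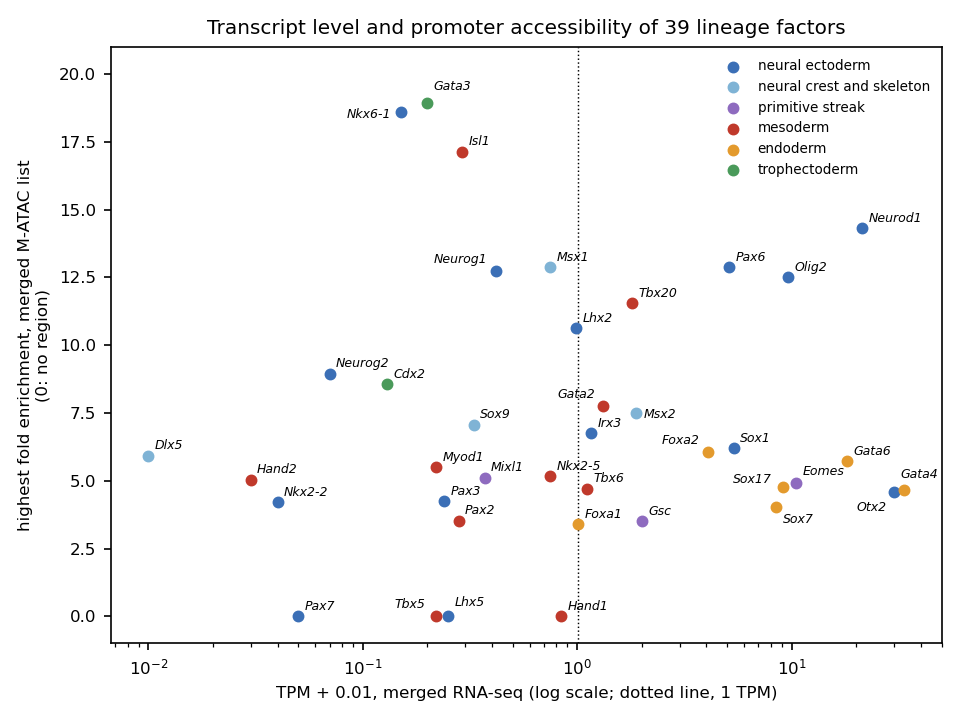
Each point is 1 of the 39 lineage factors, coloured by list, with its TPM plus 0.01 on a log axis and the highest fold enrichment of a region within 3 kb of a start in the merged M-ATAC list on the y axis (0 for the closed factors). Gata3, Nkx6-1 and Isl1 combine folds above 17 with less than 0.3 TPM, while Gata4 and Otx2 combine about 30 TPM with folds below 5.

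The 5 factors with the highest merged fold were Gata3 (18.95), Nkx6-1 (18.6), Isl1 (17.1), Neurod1 (14.3) and Pax6 (12.9), just above Msx1 (12.9). The 5 with the most accessible bases in the window were Pax6 (1940), Sox17 (1651), Tbx20 (1150), Lhx2 (950) and Gata3 (874). Windows differ in size with the number of annotated starts, of which Pax6 has 24 and Sox17 has 8. The 35 open factors held 66 regions, 20 of them over a transcription start, 22 upstream of the nearest start and 24 downstream, with a median width of 286.5 bases. A single region was found at 15 factors, 2 regions at 12 and 3 or more at 8. At 10 factors, Gata3 and Neurod1 among them, every region also lay within 3 kb of a start of another gene. The other 25 factors were open by a region of their own.

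**Figure D3:**
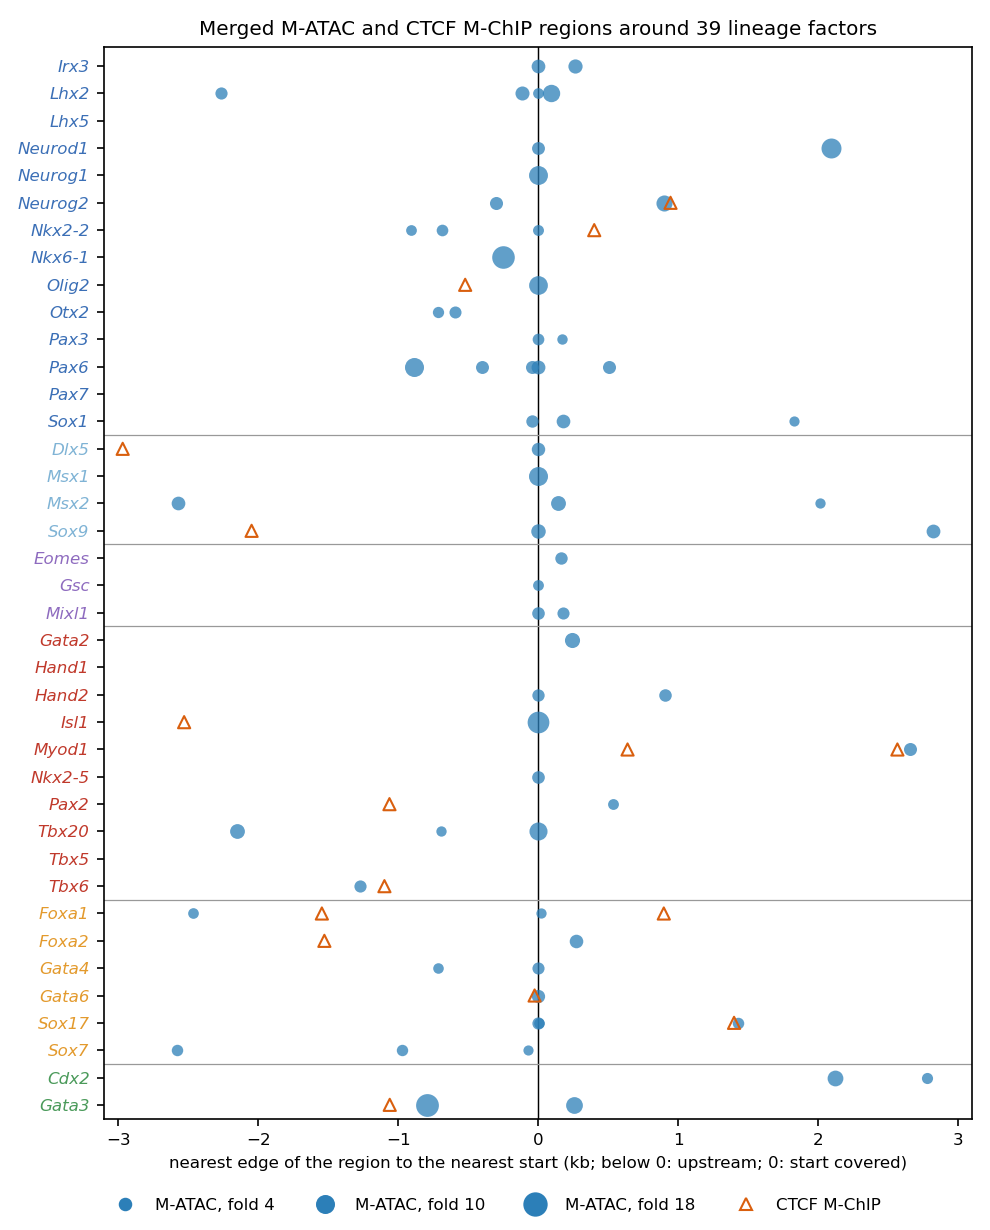
Regions of the merged M-ATAC list (blue circles, area growing with fold enrichment) and of the merged CTCF M-ChIP list (orange triangles) at the 39 lineage factors, 1 row per gene with names coloured by list. The x axis gives the distance in kb from the nearest edge of the region to the nearest transcription start, with 0 where the start is covered. Of 66 M-ATAC regions 20 sit at 0, and no CTCF region does. Neither share was counted over all genes.

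The sequences of 3 open regions outside annotated exons and the upstream promoter of 1 closed factor are given as examples. They are printed in the direction of each gene and with every CpG in capitals. They do not span the range of CpG content, which was 0.752 to 17.1 CpGs per 100 bases over the 66 regions. Nkx6-1, a homeobox factor of the ventral neural tube and of beta cells, has its single region at chr5:101665247-101665582 upstream of the start. Gata3, a zinc finger factor of trophectoderm and T cells, has its strongest region within the gene at chr2:9879394-9879879. That region also lies within 3 kb of starts of 4930412O13Rik and Gm13256, and the other Gata3 region within 3 kb of a start of 9230102O04Rik. Of both, the central 300 bases are shown (chr5:101665265-101665564 and chr2:9879487-9879786, minus strand). The Myod1 region at chr7:46379128-46379283 (plus strand) lies past the 3′ end of the gene and is shown whole. For Pax7 the 250 bases before the RefSeq start are shown (chr4:139832969-139833218, minus strand, GRCm38.p6).
Nkx6-1: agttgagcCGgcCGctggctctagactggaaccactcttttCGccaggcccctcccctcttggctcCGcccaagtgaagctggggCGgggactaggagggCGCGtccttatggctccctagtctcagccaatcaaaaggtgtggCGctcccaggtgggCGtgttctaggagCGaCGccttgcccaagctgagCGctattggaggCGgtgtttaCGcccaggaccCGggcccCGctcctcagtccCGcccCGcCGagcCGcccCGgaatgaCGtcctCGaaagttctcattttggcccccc
Gata3: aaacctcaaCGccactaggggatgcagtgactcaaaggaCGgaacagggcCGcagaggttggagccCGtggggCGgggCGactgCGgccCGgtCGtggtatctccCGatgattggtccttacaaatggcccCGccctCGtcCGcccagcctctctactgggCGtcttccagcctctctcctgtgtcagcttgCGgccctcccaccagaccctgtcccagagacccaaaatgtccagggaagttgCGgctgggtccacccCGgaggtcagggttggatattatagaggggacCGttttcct
Myod1: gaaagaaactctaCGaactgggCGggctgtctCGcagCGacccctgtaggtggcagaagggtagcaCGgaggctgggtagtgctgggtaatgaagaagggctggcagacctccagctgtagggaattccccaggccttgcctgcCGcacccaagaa
Pax7: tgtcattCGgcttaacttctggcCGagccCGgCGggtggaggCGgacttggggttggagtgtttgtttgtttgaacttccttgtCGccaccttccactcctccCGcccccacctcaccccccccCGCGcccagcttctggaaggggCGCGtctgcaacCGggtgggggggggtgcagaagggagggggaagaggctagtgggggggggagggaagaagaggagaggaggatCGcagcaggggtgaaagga
The stretches hold 23 CpGs at Nkx6-1 and 18 at Gata3 in 300 bases each, 6 in 156 bases at Myod1 and 13 in 250 bases at Pax7. The closed Pax7 promoter is thus not poor in CpG.

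Single libraries showed fewer of these promoters than the merged list. In the M-ATAC samples 13, 17, 18 and 16 factors were open (16.0 ± 2.16, SD, n = 4). The M-ATAC-NC samples gave 23 and 26 (24.5 ± 2.12, n = 2), and the ATAC samples 15 and 22 (18.5 ± 4.95, n = 2). Every M-ATAC-NC sample lay above every M-ATAC sample, while the ATAC values overlapped those of M-ATAC. The share of all protein-coding genes with a region was 49.6 to 54.0% in M-ATAC, 55.5 and 59.3% in M-ATAC-NC and 51.1 and 56.8% in ATAC. Among genes under 1 TPM the share was lower, with 17.2 to 18.5% in M-ATAC, 21.6 and 24.4% in M-ATAC-NC and 19.3 and 23.0% in ATAC. In M-ATAC samples the share of open factors was 10.5 percentage points below the share of all genes (SD 5.53, n = 4), and in M-ATAC-NC samples it was 5.41 points above (SD 2.76, n = 2). In the ATAC samples the difference was -6.55 points (SD 8.64, n = 2). With 4 against 2 samples, a two-sided exact permutation test cannot give less than p = 0.133. It gave this value for both measures of M-ATAC against M-ATAC-NC and 0.533 for both against ATAC (adjusted over these 4 comparisons, 0.267 and 0.533). The test takes the samples as independent, which aliquots of shared preparations are not. The number of regions per list was 26304 to 29331 for M-ATAC, 29293 and 32999 for M-ATAC-NC, 24113 and 30666 for ATAC and 66726 for the merged list. The peak lists do not hold read depths, and the part of depth in these counts was not tested.

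**Figure D4:**
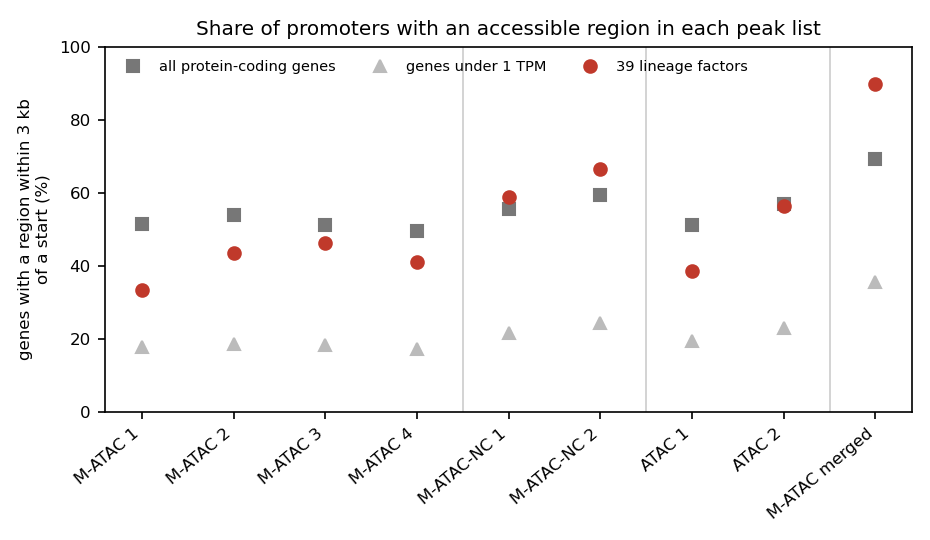
Percentage of genes with a region within 3 kb of a start in each accessibility peak list, for the 39 lineage factors (red circles), all protein-coding genes (grey squares) and genes under 1 TPM (light triangles). The lineage factors lie below all genes in the 4 M-ATAC samples (33.3 to 46.2%) and in ATAC replicate 1 (38.5% beside 51.1%). In ATAC replicate 2 they are nearly level with all genes (56.4% beside 56.8%). They lie above all genes in the M-ATAC-NC samples (59.0 and 66.7% beside 55.5 and 59.3%) and in the merged list (89.7% beside 69.2%). In every list they lie above genes under 1 TPM, although 18 of the 39 were at 1 TPM or more.

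In all 4 M-ATAC samples 13 of 39 promoters were open, beside 40.1% of all genes. These were Gata3, Irx3, Isl1, Lhx2, Msx1, Msx2, Neurod1, Neurog1, Nkx6-1, Olig2, Pax6, Sox17 and Tbx20. They comprise 7 of 14 neural factors, 2 of 4 neural crest factors, 2 of 10 mesoderm factors, 1 of 6 endoderm factors, 1 of 2 trophectoderm factors and 0 of 3 primitive streak factors. Their median level was 1.15 TPM, and 6 of the 13 were under 1 TPM. Of the 21 factors under 1 TPM these were 6, beside 10.5% of all genes under 1 TPM. Both M-ATAC-NC samples had 20 of 39 open, beside 52.8% of all genes, and both ATAC samples 15 of 39, beside 48.5%.

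Of these 13, 10 had a region in every accessibility sample. Isl1, a LIM homeobox factor of heart progenitors and motor neurons, had folds of 10.7, 13.3, 8.62 and 11.9 in M-ATAC, 8.27 and 10.4 in M-ATAC-NC and 8.53 and 8.04 in ATAC. Tbx20 had 12.1, 12.4, 8.07 and 9.38 in M-ATAC, 7.74 and 7.63 in M-ATAC-NC and 6.63 and 7.56 in ATAC. For Isl1 the raw M-ATAC values overlapped those of M-ATAC-NC and lay above both ATAC values. For Tbx20 the lowest raw M-ATAC value was above the other groups. Neurod1 had 10.9, 9.13, 10.7 and 8.23 in M-ATAC, 5.93 and 7.82 in M-ATAC-NC and 6.51 and 5.12 in ATAC, again without overlap. Neurog1, a proneural factor of sensory neurons, had 5.95, 8.49, 6.99 and 6.36 in M-ATAC, 8.12 and 6.24 in M-ATAC-NC and 4.45 and 5.44 in ATAC. Its M-ATAC and M-ATAC-NC values overlapped and its ATAC values were the lowest. Lhx2 had 7.70, 10.5, 8.98 and 5.39 in M-ATAC, 6.42 and 6.48 in M-ATAC-NC and 3.47 and 6.07 in ATAC, so that replicate 4 of M-ATAC was within the range of ATAC. Irx3 had 5.34, 5.86, 4.37 and 6.88 in M-ATAC, 5.45 and 4.96 in M-ATAC-NC and 3.43 and 3.58 in ATAC, with the ATAC values below the rest. These folds are raw, and the median log2 fold of each sample was higher in M-ATAC (3.15 to 3.45) than in ATAC (2.71 to 2.82). With each sample centred on its median, the log2 differences from ATAC were -0.10 for Isl1, 0.03 for Tbx20 and -0.02 for Neurog1. They were 0.15 for Irx3, 0.24 for Neurod1 and 0.28 for Lhx2, and none of these passed (limma, adjusted p of 0.561 or more).

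The other 3 of the 13 lacked a region in some unconverted library. Msx1 had 8.84, 8.51, 8.11 and 8.33 in M-ATAC, 5.72 in M-ATAC-NC replicate 1, no region in replicate 2, and 4.73 and 4.07 in ATAC. Olig2 had 8.53, 11.0, 4.97 and 10.03 in M-ATAC and 8.94 and 5.30 in M-ATAC-NC. Msx2 had 5.09, 5.66, 5.64 and 3.83 in M-ATAC and 6.02 and 6.81 in M-ATAC-NC. Olig2 and Msx2 had no region in either ATAC sample.

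A further 9 factors were open in 1 to 3 of the M-ATAC samples, 9 of 39 beside 22.3% of all genes. Neurog2, a proneural bHLH factor, had folds of 7.18, 6.41 and 5.03 in replicates 2 to 4 and no region in replicate 1. Cdx2, which sets up the trophectoderm, had 3.61 and 6.56 in replicates 3 and 4. Replicate 2 alone held regions of Foxa2 (6.46), Gata6 (5.95) and Gata2 (7.17). Replicate 3 alone held Sox7 (4.53), Hand2 (4.20) and Sox9 (4.61), and replicate 4 alone held Dlx5 (5.04).

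The remaining 13 of the 35 open factors had no region in any single M-ATAC sample, beside 10.1% of all genes open in the merged list. Their merged folds ranged from 3.40 for Foxa1 to 6.21 for Sox1. They included all 3 primitive streak factors, Eomes, Gsc and Mixl1, and also Gata4, Myod1, Nkx2-2, Nkx2-5, Otx2, Pax2, Pax3 and Tbx6. Their median level was 1.00 TPM, and Gata4, Otx2 and Eomes among them were at 10 TPM or more. Most of the 13 did appear in the other libraries. Nkx2-2 had a region in both M-ATAC-NC samples (3.39 and 5.65) and in both ATAC samples (5.08 and 4.36). Eomes (4.72 and 4.89), Mixl1 (6.07 and 5.02), Pax3 (6.26 and 5.05) and Sox1 (3.36 and 5.18) had a region in both M-ATAC-NC samples. Of these, all but Sox1 also had one in ATAC replicate 2. Gata4 (6.34), Myod1 (3.78), Nkx2-5 (3.74) and Gsc (4.30) had a region in M-ATAC-NC replicate 2 only of that pair, and Otx2 in ATAC replicate 2 alone (3.89). Foxa1, Pax2 and Tbx6 had none in the 8 samples and were open in the merged list alone, 3 of 35 beside 4.2% of all open genes.

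**Figure D5:**
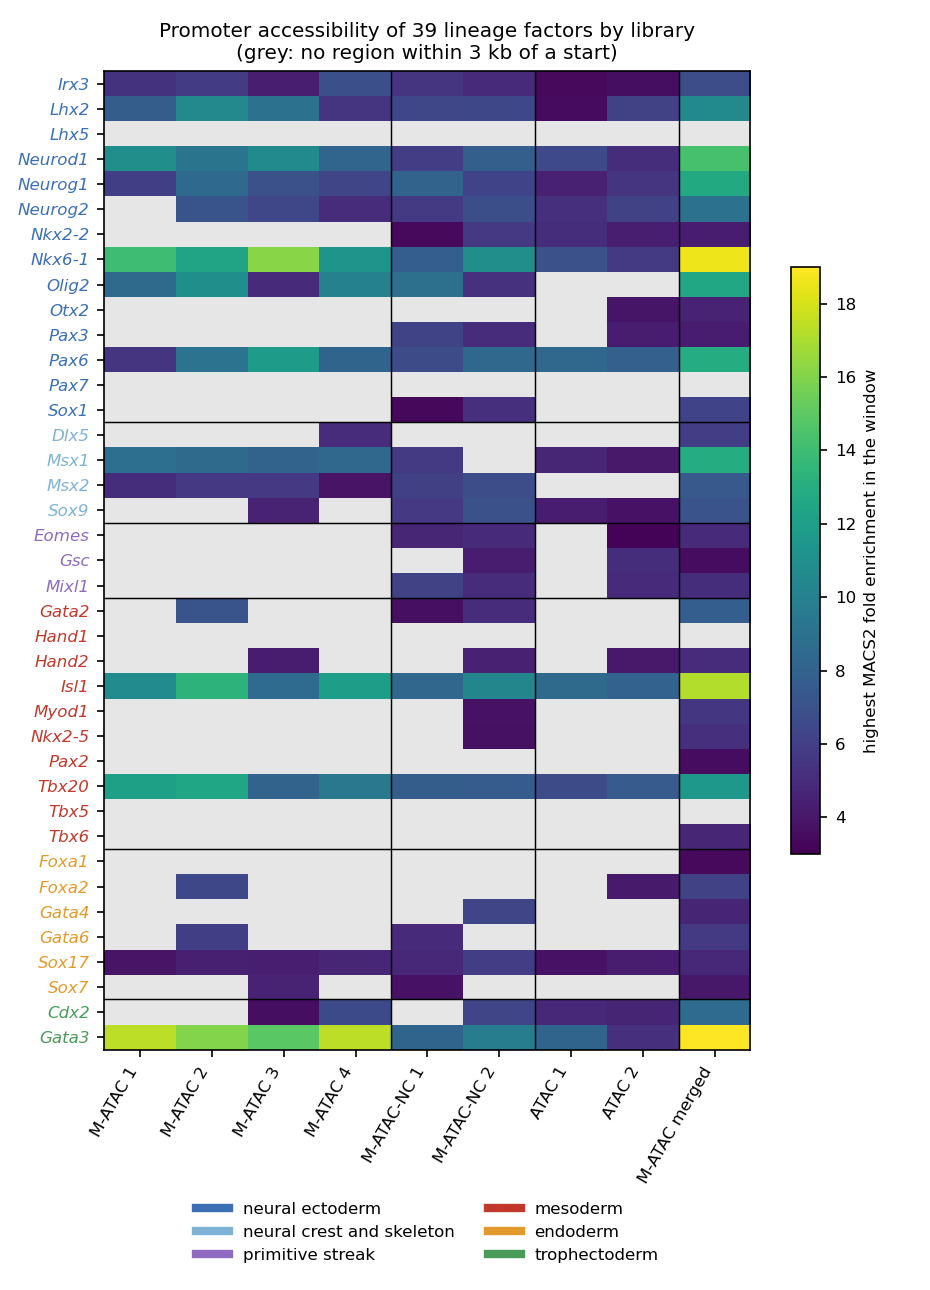
Highest MACS2 fold enrichment of a region within 3 kb of a start for each of the 39 lineage factors (rows, ordered and coloured by list) in the 8 accessibility samples and the merged M-ATAC list (columns), with grey where no region was called. Gata3, Nkx6-1, Isl1 and Tbx20 are filled in every column, while Hand1, Lhx5, Pax7 and Tbx5 are grey throughout.

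Fold enrichment could be compared between library types for the 10 factors with a region in all 8 samples. The comparison used limma over the 7870 protein-coding genes of that kind, on log2 fold with each sample centred on its median. Gata3 alone of the 10 passed an adjusted p of 0.05 for M-ATAC against ATAC, beside 5.54% of all genes tested (274 higher and 162 lower, or 3655 higher and 8 lower without centring). Its fold was 17.4, 16.1, 14.9 and 17.4 in M-ATAC, 8.15 and 9.70 in M-ATAC-NC and 8.18 and 5.21 in ATAC. The M-ATAC values did not overlap those of the other groups. The centred log2 difference was 0.82 ± 0.19 (SE) against ATAC (limma, Benjamini-Hochberg adjusted p = 0.0117), and without ATAC replicate 2 it was 0.44 with an adjusted p of 0.327. Against M-ATAC-NC it was 0.74 ± 0.19 and did not pass (limma, adjusted p = 0.131).

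Nkx6-1 showed similar raw values, with 14.0, 12.3, 16.1 and 11.3 in M-ATAC, 7.79 and 10.9 in M-ATAC-NC and 6.94 and 5.71 in ATAC. Its groups did not overlap either, and its centred log2 differences of 0.57 ± 0.20 against ATAC and 0.39 ± 0.20 against M-ATAC-NC did not pass (limma, adjusted p = 0.0852 and 0.421). Pax6 was at 5.38, 9.07, 11.8 and 8.14 in M-ATAC and at 8.34 and 7.88 in ATAC, a centred log2 difference of -0.48 ± 0.25 (limma, adjusted p = 0.262). Sox17 was at 3.86, 4.38, 4.32 and 4.71 in M-ATAC and at 3.79 and 4.24 in ATAC, a centred log2 difference of -0.40 ± 0.22 (limma, adjusted p = 0.266). For Pax6, Sox17, Isl1 and Neurog1 the sign turns without centring. The sample medians of log2 fold were 3.15 to 3.45 in M-ATAC and 2.71 to 2.82 in ATAC. Over the 10 factors the median centred difference was 0.09 against ATAC, beside 0.01 for all genes tested. Against M-ATAC-NC, limma called 1 gene of 7870 (0.0127%), which was none of the 10, and 1013 genes had an unadjusted p under 0.05. With the replicate number as a block it called 171 genes, also none of the 10. The fit without the block takes M-ATAC and M-ATAC-NC samples as independent. No source used here names separate cultures, so the p-values cover the spread between these samples only, which may be technical.

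Where the promoters were open, their accessible DNA was almost free of methylation. M-ATAC reads accessible copies only and does not describe closed copies of the same promoters. The paper reports that some peaks with low methylation in M-ATAC were more methylated in whole-genome bisulfite sequencing. The deposited cytosine table holds CpG cytosines, 99.7% of them inside merged M-ATAC regions, so methylation was read for the 35 open factors and not for the closed ones. Over 1745 cytosines with at least 5 reads, methylated reads numbered 100 of 21497, a level of 0.465% (95% Wilson interval from 0.383 to 0.565, counting error only). Reads here and below are counted at each cytosine, so a read over several CpGs counts more than once and the intervals are too narrow. The median over factors was 0.373%, beside 0.390% over all protein-coding genes with a measured cytosine. Pooled reads of genes under 1 TPM were methylated at 1.55% (1.53 to 1.58), those of the 17 open factors under 1 TPM at 0.485% (0.368 to 0.639) and those of the 18 factors at 1 TPM or more at 0.447% (0.339 to 0.589). The silent and the transcribed factors thus had intervals that overlap.

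Lists ranged from 0.295% (0.143 to 0.608) for trophectoderm, 0.364% (0.198 to 0.669) for endoderm and 0.393% (0.285 to 0.541) for neural factors to 0.707% (0.499 to 1.00) for mesoderm and 0.904% (0.415 to 1.96) for primitive streak factors. Neural crest factors were at 0.470% (0.247 to 0.891). The intervals of neighbouring lists overlapped. By the median over factors the last pair changed order, with 2.77% for mesoderm and 0.636% for primitive streak factors.

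The 5 factors with the highest lower bounds were Tbx6 with 8 of 76 reads methylated (10.5%, 5.43 to 19.4), Myod1 with 4 of 40 (10%, 3.96 to 23.1), Nkx2-5 with 2 of 38 (5.26%, 1.46 to 17.3), Mixl1 with 3 of 102 (2.94%, 1.01 to 8.29) and Pax2 with 1 of 25 (4.0%, 0.710 to 19.5). All 5 were among the factors open in no single M-ATAC sample. For Tbx6 and Myod1 the reads come from a single region away from the start, 1271 bases upstream and 2654 bases downstream, and that of Tbx6 also lies near the start of Ypel3. In contrast, the Nkx6-1 region shown above had 2 of 1195 reads methylated (0.167%, 0.0459 to 0.608) and the Gata3 region shown had 5 of 1747 (0.286%). At least 1 cytosine of 20% or more was found at 13 of 35 factors, beside 37.2% of all genes with a measured cytosine. These were 15 cytosines with 5 to 10 reads each, of which 8 had 1 methylated read of 5, and none was above 80%. Coverage set what could be seen, since Otx2 had a single cytosine with 5 reads and Pax2 had 5 cytosines with 25 reads.

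CTCF, the zinc finger protein of chromatin loop anchors, had a region in the merged CTCF M-ChIP list at 14 of the 39 promoters, beside 32.2% of all genes. Among the 21 factors under 1 TPM there were 8, beside 19.6% of all genes under 1 TPM. Endoderm factors had 4 of 6 (Foxa1, Foxa2, Gata6 and Sox17), mesoderm factors 4 of 10 (Isl1, Myod1, Pax2 and Tbx6), neural factors 3 of 14 (Neurog2, Nkx2-2 and Olig2), neural crest factors 2 of 4 (Dlx5 and Sox9) and trophectoderm factors 1 of 2 (Gata3). The primitive streak factors had none. No CTCF region covered a transcription start, and 7 of the 16 regions overlapped a merged M-ATAC region, at Gata3, Gata6, Myod1, Neurog2, Nkx2-2, Sox17 and Tbx6. The shares over CTCF regions of all genes were not counted, so whether these counts are particular to the factors was not tested.

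The merged fold was highest at Pax2 (16.8), Tbx6 (15.3), Gata3 (14.9), Neurog2 (14.7), Olig2 (13.1) and Foxa2 (13.0), and lowest at Nkx2-2 (5.32). It was 9.95 at Myod1, 9.22 at Foxa1, 8.80 at Gata6, 8.27 at Sox17, 8.04 at Dlx5, 7.92 at Sox9 and 7.15 at Isl1. Both CTCF M-ChIP samples held a region at 8 factors (Foxa2, Gata3, Myod1, Neurog2, Olig2, Pax2, Sox9 and Tbx6), beside 22.3% of all genes. Both CTCF ChIP samples held one at 17 factors, beside 32.7%, which added Eomes, Nkx6-1 and Pax6 to the 14. In CTCF ChIP the folds were 17.99 and 22.2 at Pax2 and 18.99 and 25.9 at Tbx6, and in CTCF M-ChIP 13.9 and 9.55 at Pax2 and 16.7 and 9.81 at Tbx6. Those of Nkx6-1 were near the low end of the CTCF ChIP values, at 4.13 and 4.03. The number of regions was 40046 and 49633 for CTCF ChIP and 32911 and 31282 for CTCF M-ChIP, and its part in these counts was not tested.

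The study's search for the CTCF motif placed 16 matches at 11 of the 14 factors, 14 of them with a CpG. The same shares over all matches of the search were not counted. The 19-base matches at 6 factors are given in the 5′ to 3′ direction of the motif, with CpGs in capitals, since they are the bases at which binding and methylation were read together.
Neurog2: tggcctccagggggCGctc
Tbx6: tggcCGccagggggagcca
Foxa2: CGgcCGacagggggCGccc
Pax2: aggcctgtagatggCGctc
Myod1: ccacctacaggggtCGctg
Gata3: aCGccactaggggatgcag
They lie at chr3:127634262-127634280 (plus strand), chr7:126780151-126780169 (plus), chr2:148048642-148048660 (minus), chr19:44754854-44754872 (minus), chr7:46379162-46379180 (minus) and chr2:9879760-9879778 (minus). The Neurog2 match had the highest FIMO score of the 16 (23.6), and the Gata3 match a lower one (13.0). In the CTCF M-ChIP cytosine table, 11 matches had cytosines covered 5 times or more. None of their 255 reads, counted at each cytosine, carried methylation, 0 in all (95% Wilson interval up to 1.48%). At Myod1 the 2 cytosines of the match had 24 reads with 0 methylated (interval up to 13.8%). These matches came from peaks of bisulfite-converted chromatin bound by CTCF and do not describe unbound copies.

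Lists of other genes were counted in the same way. Of 88 other lineage transcription factors 75 were open, and of the 62 among them under 1 TPM 51 were open. Of 29 effector genes of differentiated tissues, such as globins, albumin and muscle proteins, 12 were open and 24 were under 1 TPM, and their median CpG ratio was 0.244. The 19 genes of Polycomb complexes, which repress many lineage factors in stem cells, were all open and all at 3.96 TPM or more, with a median of 91.6 TPM.

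In Klf4-/- mESC given back WT KLF4, peak lists labelled M-ATAC (9329 and 11754 regions) held 0 and 4 of the 39 promoters, beside 11.4 and 18.5% of all genes. The promoters in both lists numbered 0, beside 7.95% of all genes. With the R462A mutant of KLF4 the counts were 0 and 0, beside 3.69 and 3.28% of all genes. In KLF4 ChIP of Klf4-/- cells, the antibody control, they were 1 and 4, beside 12.6 and 16.3%. The 4 in the second WT list were Gata3, Nkx2-2, Nkx6-1 and Sox7. The second control list held the same number, namely Gata3, Lhx5, Pax6 and Sox9, so that only Gata3 was in both. The assay of the WT and R462A lists is uncertain, because their deposited names match those given for KLF4 M-ChIP in the labels, so only these counts are given.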

How the data were processed

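Per the study's methods, the authors trimmed reads with Trim Galore (0.4.4), aligned them to mm10 with Bowtie2 or, for converted libraries, Bismark (0.18.1), removed duplicates and reads of mapping quality under 30 with SAMtools (1.3), and called peaks with MACS2 at a q-value of 0.01. The aligner of the unconverted libraries made with methylated adaptors and the RNA-seq annotation are not given in the sources used here. The deposited peak lists give fold (the ratio to local background) and −log10 q, and the KLF4 lists of PeaKDEck a p-value. The deposited cytosine tables give counts of methylated and unmethylated reads and a percent, with replicates merged by the authors, as does the deposited TPM column. FIMO scores and p-values came from the authors' motif file. Which M-ATAC samples entered the merged files is not stated there.

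Regions repeated for several summits were counted once. Windows of 3 kb on each side of every GENCODE M21 transcription start were intersected with regions and cytosines of at least 5 reads (pandas 2.3.3). Every cytosine of the M-ATAC table lay on a CpG of GRCm38. RefSeq promoters (GRCm38.p6) were found for 27 of 39 factors. Fold was tested with limma (3.58.1) on log2 values, in 1 fit of 8 samples, and the code was tested on simulated data. Same-numbered samples did not deviate together (correlations of deviations between -0.02 and 0.02), and neither did other pairs, so this check cannot identify pairs. Wilson intervals and floors cover counting error only and take each read at each cytosine as independent, which reads over several CpGs are not.

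The 39 factors, the comparison lists and the alternatives were chosen with earlier results of these data known, and 5 alternatives after these values were seen. All 39 are accounted for. By rule, values are given for factors at 1 TPM or more, closed, open in fewer than 4 M-ATAC samples, among the top 5 by bases, fold or lower methylation bound, with a CTCF region or motif match, or called by limma, and the rest of the 13 open in all 4 M-ATAC samples were added after their values were seen.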

Additional observations from a re-analysis of the deposited data

How the results depend on the processing

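The number of open factors (35) stayed within 1.5 times under a 1 kb window (Cdx2, Myod1 and Tbx6 then closed too), a −log10 q of at least 5, the 5′ end of the gene record alone, 100 covered bases and regions away from other starts, and was 22 when a region in at least 1 single M-ATAC sample was asked for. Leaving out 1 sample can only keep or raise a count of factors with a region in every sample. It gave 13 to 14 factors open in every M-ATAC sample and 11 with CTCF in place of 8. The 11 are simply the count of each single CTCF M-ChIP sample. In a 1 kb window 6 factors had a CTCF region, 6 tissue effector genes were open, and the share of open trophectoderm factors was 50% in place of 100% and of mesoderm factors 60% in place of 80%. Methylation was 0.572% with at least 1 read and 0.353% with at least 10.

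For M-ATAC against ATAC, limma called 3663 genes without centring (3655 of them higher), with 5 of the factors, and 828 with the replicate block, with 2 (Gata3, and Pax6 at -0.84, adjusted p = 0.0185). With missing regions set to a fold of 1, 3 of the factors were called. Leaving out 1 sample gave 23 to 511 genes and 0 to 1 factor, with 23 genes without ATAC replicate 1, 35 without ATAC replicate 2 and 251 without M-ATAC replicate 2. Against M-ATAC-NC the counts were 26 without centring (1 factor, Gata3), 171 with the replicate block, 0 with missing regions set to 1, 0 in a 1 kb window and 1 to 4 when a sample was left out. Without centring Pax6 was at 0.028 and Sox17 at 0.11 against ATAC. M-ATAC-NC samples are aliquots taken before conversion, but nothing ties their numbers to those of M-ATAC, so the block may not match the true pairs. Correlations of deviations lay between -0.02 and 0.02 for all pairs, same-numbered or not, and so cannot tell which samples pair. The cause of these differences was not tested. Of the recomputed differences of Gata3, Nkx6-1, Pax6 and Sox17, 54 kept their sign and their side of the threshold. A further 2 changed sign, 3 came to pass it and 1 ceased to. Only Gata3 against ATAC passed in the main fit, so most of those kept were differences that did not pass. For the main results, 53 alternatives left the value within its set limit and 22 moved it. The peak lists hold no read depth, and what it limits was not tested.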
